A study of Mus musculus with 20 samples.

Results

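The 8 genes described here encode structural proteins of caveolae and the EHD ATPases that act on the same membranes. They are the caveolins Cav1 and Cav2, the cavins Cavin1, Cavin2 and Cavin3, and the EHD genes Ehd1, Ehd2 and Ehd4. They were chosen by name from the deposited table, which held 34255 genes, and all 8 were found there and passed the filter on low counts in every comparison. The choice was made with earlier results of these data known, so counts of them beside shares over all genes are descriptions. Messenger RNA was measured in the kidney of healthy male wild-type mice of the strain C57BL6/OlaHsd, with 4 libraries in each of 5 groups. The microdissected compartments came from the cortex. Arterioles, glomeruli and post-capillary venules were cut by laser from frozen sections stained with hematoxylin. Peritubular capillaries were cut from a section stained with the fluorescent lectin isolectin B4. The fifth group was whole kidney that was not microdissected. The header lines of the count table mark all 20 columns as control with a time of 4 h and do not say what that time means for these mice. The libraries were made with a kit that places 1 read near the 3′ end of each transcript, so levels were compared between groups for 1 gene and not between genes.

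Caveolae are flask-shaped pits of the plasma membrane that are abundant in endothelial cells, smooth muscle cells and adipocytes. CAV1 forms their scaffold and CAV2 joins it in hetero-oligomers, while the cavins form a coat on the cytoplasmic side, with cavin-1 as the member that the others need for recruitment. EHD proteins are dynamin-like ATPases. EHD2 sits at the neck of caveolae and holds them at the cell surface, whereas EHD1 and EHD4 are best known from the recycling of cargo out of endosomes, and both can also bind caveolae.

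Each library held between 4639090 and 12283098 counts. The level of a gene is given below as counts per 1000000 (CPM) of the TMM-scaled library total, as mean ± SD over 4 libraries. Each library carried a number in its name (93, 96, 98 or 100), and values for the 4 libraries of a group are given in that order. The labels call these libraries biological replicates and name no mouse. For each mouse the arterioles, glomeruli and venules came from a single slide and the capillaries from another, so libraries of different groups can share a mouse. Whether a library number marks a mouse is not stated, and the main tests treat the libraries as unrelated. Cell type markers followed the labels in part. The summed level of 10 endothelial genes was 4546 ± 842 CPM in arterioles, 3486 ± 324 in glomeruli, 1043 ± 163 in post-capillary venules, 762 ± 537 in peritubular capillaries and 434 ± 38.3 in whole kidney. The 8 smooth muscle genes summed to 30425 ± 12502 CPM in arterioles and to at most 1613 CPM in any other library. The 6 proximal tubule genes summed to 84852 ± 25047 CPM in peritubular capillaries, above the 33286 ± 750 CPM in whole kidney, so the capillary libraries held tubular RNA along with endothelial RNA. The 7 podocyte genes summed to 7854 ± 663 CPM in glomeruli and to at most 1760 CPM in any other library. None of the 10 endothelial genes was at 0 in all 4 libraries of any group.

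The 8 genes lie on 6 chromosomes in GRCm38, and each is a protein-coding gene of the GENCODE M21 annotation. Cav2 (chr6:17281185-17289115) and Cav1 (chr6:17306335-17341452) are neighbours on the plus strand, with 17219 bases between them. Cavin1 lies at chr11:100956733-100970887 on the minus strand, Cavin2 at chr1:51289126-51302960 on the plus strand and Cavin3 at chr7:105480083-105482300 on the minus strand. Ehd1 lies at chr19:6276725-6300096 on the plus strand. Ehd2 (chr7:15946958-15967567) and Ehd4 (chr2:120089175-120154606) lie on the minus strand. Cavin3 overlaps an antisense gene, Gm45667, which had 769 counts over all 20 libraries. The antisense genes that overlap Cav1, Cav2 and Cavin2 had 0 counts.

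Promoters are shown as a description of the genes, and their relation to the levels was not tested. RefSeq promoters of GRCm38.p6, from 250 bases before to 50 bases after a start, were matched for 6 of the 8 genes, with Cavin3 and Ehd1 unmatched. The lines below give 5 of them, each 300 bases, written in the direction of transcription. Capitals mark the GC box GGGCGG or its reverse complement CCGCCC.
Cav1: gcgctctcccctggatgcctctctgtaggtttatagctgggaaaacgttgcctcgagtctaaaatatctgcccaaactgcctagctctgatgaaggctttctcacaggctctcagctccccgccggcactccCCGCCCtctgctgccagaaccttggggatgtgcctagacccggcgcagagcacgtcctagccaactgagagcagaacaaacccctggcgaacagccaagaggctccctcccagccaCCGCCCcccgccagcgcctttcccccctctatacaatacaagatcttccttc
Cavin1: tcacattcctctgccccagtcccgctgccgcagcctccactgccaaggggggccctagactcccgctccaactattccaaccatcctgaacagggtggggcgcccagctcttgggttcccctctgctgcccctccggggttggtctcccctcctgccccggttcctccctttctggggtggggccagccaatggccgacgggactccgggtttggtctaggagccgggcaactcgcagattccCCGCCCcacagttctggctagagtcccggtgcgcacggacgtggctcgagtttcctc
Ehd2: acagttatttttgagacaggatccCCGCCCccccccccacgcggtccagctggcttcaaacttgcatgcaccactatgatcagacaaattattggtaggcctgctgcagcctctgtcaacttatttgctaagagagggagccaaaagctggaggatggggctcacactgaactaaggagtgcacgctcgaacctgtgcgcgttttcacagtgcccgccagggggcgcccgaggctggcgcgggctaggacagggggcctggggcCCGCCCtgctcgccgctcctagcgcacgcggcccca
Ehd4: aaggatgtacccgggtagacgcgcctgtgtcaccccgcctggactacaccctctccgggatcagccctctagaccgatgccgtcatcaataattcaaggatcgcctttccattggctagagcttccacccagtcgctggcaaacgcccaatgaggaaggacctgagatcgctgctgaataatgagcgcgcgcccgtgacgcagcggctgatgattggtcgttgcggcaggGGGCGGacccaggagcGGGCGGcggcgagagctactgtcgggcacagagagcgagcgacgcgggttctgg
Cavin2: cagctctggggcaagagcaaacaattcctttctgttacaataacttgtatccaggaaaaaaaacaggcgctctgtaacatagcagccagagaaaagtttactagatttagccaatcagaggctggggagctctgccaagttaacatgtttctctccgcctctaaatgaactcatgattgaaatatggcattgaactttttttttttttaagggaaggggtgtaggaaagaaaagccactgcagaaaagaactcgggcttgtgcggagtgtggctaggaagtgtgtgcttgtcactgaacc
The windows are chr6:17306085-17306384 for Cav1 (plus strand; the first of 2 entries), chr11:100970568-100970867 for Cavin1 (minus strand; 1 of 2 entries), chr1:51288876-51289175 for Cavin2 (plus strand), chr7:15967486-15967785 for Ehd2 (minus strand) and chr2:120154526-120154825 for Ehd4 (minus strand). A GC box on either strand was present in the first Cav1 window and in the promoters of Cav2, Cavin1, Ehd2 and Ehd4. Of all 32851 promoters of the same length, 35.7% held a GC box. The second Cav1 entry, chr6:17307390-17307689, held 0 GC boxes. The Cav2 window, which is not printed, held 2 GC boxes and 64.3% G and C, and Cav2 passed no test between groups. The Cavin2 window held none, and its G and C content was 43.3% with 4 CpG dinucleotides. The windows of the other matched genes held between 59.3% and 67.0% G and C, beside a median of 52.7% over all promoters. The CCAAT motif, on either strand, was in the windows of Cav2, Cavin1, Cavin2, Ehd2 and Ehd4 and in 37.4% of all promoters. TATAAA, on either strand, was in the first Cav1 window alone among the 6 genes and in 13.6% of all promoters. The CArG box, on either strand, was in none of the 6 and in 1.63% of all promoters. These are 4 of 11 motifs searched, and a match is a description of the letters.

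Cav1, Cav2, Cavin1, Cavin3, Ehd1, Ehd2 and Ehd4 had their highest mean level of the 5 groups in arterioles, and Cavin2 in glomeruli. The share of all genes with their highest mean in arterioles is not given here. The mean CPM in arterioles ranged from 2.64 times (Ehd1) to 38.8 times (Ehd2) that in whole kidney. The 8 genes together summed to 3542 ± 707 CPM in arterioles, 1135 ± 249 in glomeruli, 791 ± 144 in post-capillary venules, 424 ± 228 in peritubular capillaries and 313 ± 42.5 in whole kidney. The sums did not overlap between arterioles (lowest 2930) and glomeruli (highest 1477). In these bulk samples, fewer cells of a type and less RNA per cell cannot be told apart.

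**Figure D1:**
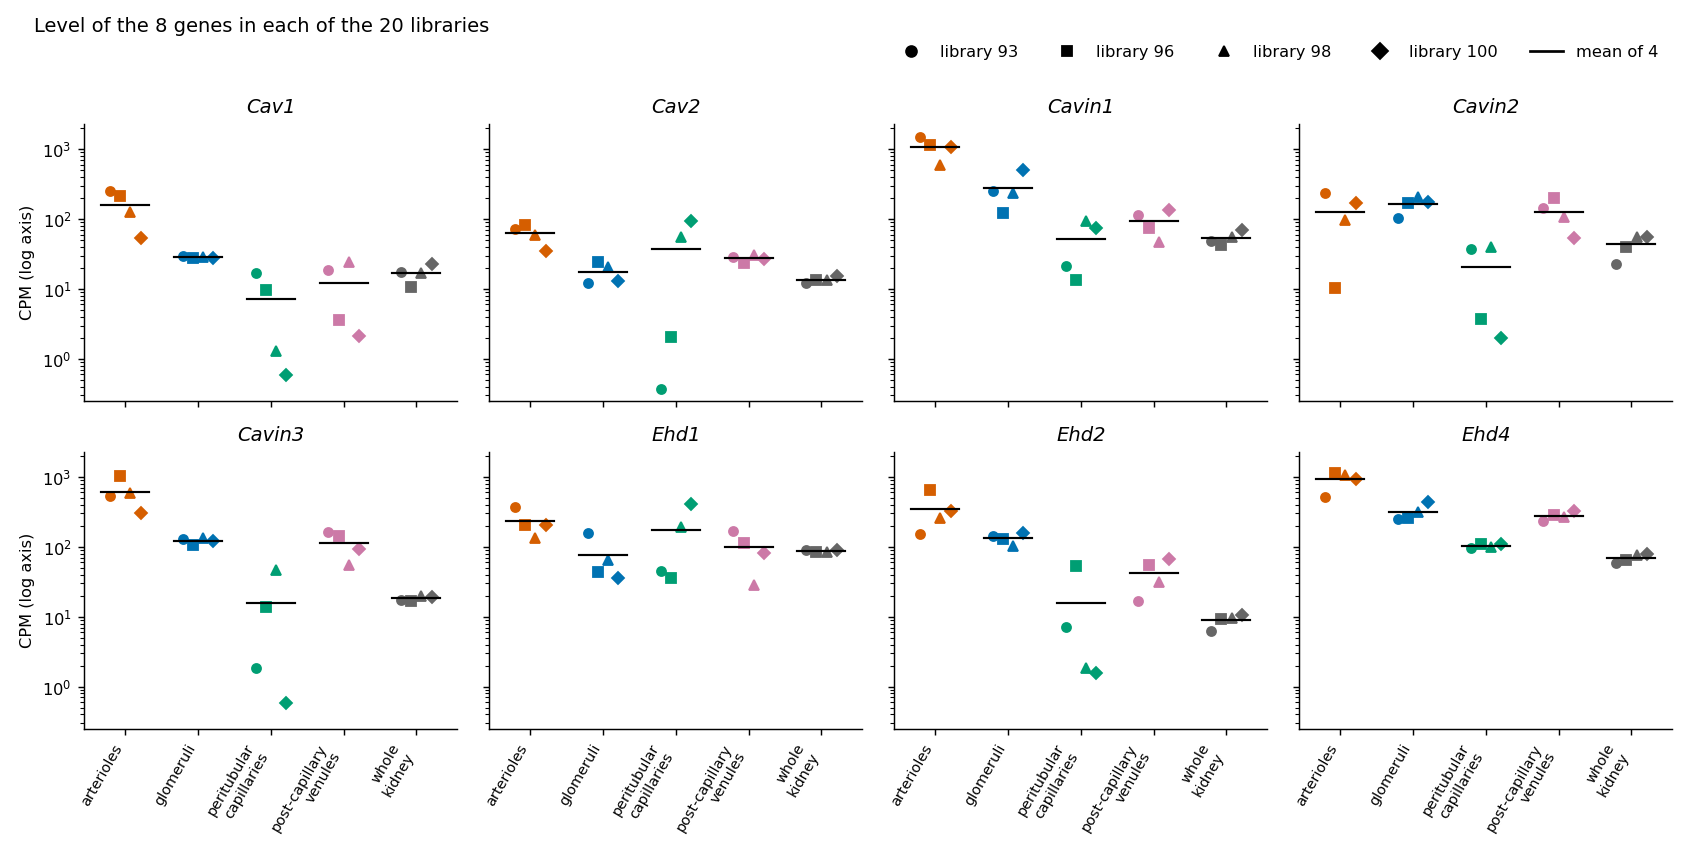
CPM of each of the 8 genes (log axis) in the 20 libraries, by group, with marker shapes for the library numbers and a line at the mean of 4. All 4 arteriole libraries lie above all 4 whole kidney libraries for each gene other than Cavin2, and the share of all genes that do so is not given here. The 4 capillary libraries spread over more than 10 times from lowest to highest for Cav1, Cav2, Cavin2, Cavin3, Ehd1 and Ehd2.

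Cav1, the caveolin without which endothelial caveolae do not form, stood at 254, 211, 125 and 53.7 CPM in the arteriole libraries. In glomeruli it stood at 29.95, 27.7, 28.2 and 27.7 CPM, the tightest group for this gene at 28.4 ± 1.07. All arteriole values were above all values of the other groups. Peritubular capillaries held 17.03, 9.73, 1.28 and 0.587 CPM and post-capillary venules 18.9, 3.65, 24.6 and 2.14 CPM. Both groups ran from values like those of whole kidney (17.04 ± 4.96 CPM) down to a few reads, with 3 counts in capillary library 100. Glomerular levels lay above those of all whole kidney, capillary and venule libraries, but these differences did not pass the test (log2 difference from whole kidney 0.74, SE 1.02, adjusted p 0.887).

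Cav2, the partner of CAV1 in the scaffold, was spread differently. It stood at 72.3, 83.4, 59.6 and 34.8 CPM in arterioles and at 28.7, 23.3, 30.9 and 26.9 CPM in venules. The venule values all exceeded the whole kidney values (13.6 ± 1.35 CPM), and glomeruli (17.5 ± 5.86 CPM) overlapped whole kidney. In peritubular capillaries Cav2 stood at 0.373, 2.06, 54.6 and 92.7 CPM, which is 3, 14, 468 and 474 counts. The capillary libraries with low Cav2 (93 and 96) were the ones with the higher Cav1, and those with high Cav2 (98 and 100) had the lower Cav1. No comparison between groups passed the test for Cav2, and its SE in the log2 differences was between 1.01 and 1.36.

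Cavin1, the coat protein that caveolae need, had levels of 1515, 1162, 586 and 1058 CPM in arterioles. It had 254, 122, 233 and 501 CPM in glomeruli and 114, 73.8, 47.4 and 135 CPM in venules. Arterioles did not overlap any other group, and glomeruli overlapped venules in 1 library. Capillary levels were 21.1, 13.3, 95.1 and 75.5 CPM, which spanned those of whole kidney (48.4, 42.2, 55.9 and 70.7 CPM). Cavin3, the smallest of these genes and a binding partner of CAV1 in the coat, had the largest ratio of the arteriole mean to the capillary mean. It stood at 537, 1028, 585 and 304 CPM in arterioles against 1.86, 13.9, 46.1 and 0.587 CPM in peritubular capillaries, a ratio of means of 39.3. Glomeruli (123 ± 11.3 CPM) and venules (114 ± 48.7 CPM) lay between and overlapped each other, and both were above all whole kidney libraries (18.4 ± 1.33 CPM).

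Cavin2, a coat protein known to promote the curving of caveolae, kept another order. Its mean was highest in glomeruli, at 104, 167, 207 and 176 CPM, followed by arterioles (127 ± 95.5 CPM) and venules (125 ± 61.4 CPM). The arteriole libraries stood at 233, 10.3, 97.9 and 167 CPM, so library 96 was lower than every whole kidney library (43.6 ± 15.8 CPM). The same library was the highest of the 4 for Cav2, Cavin3, Ehd2 and Ehd4. Venules held 144, 199, 106 and 52.9 CPM and capillaries 37.9, 3.69, 40.1 and 1.96 CPM. Neighbours in this order, glomeruli, arterioles and venules, did not differ beyond their spread (log2 differences of arterioles from glomeruli -0.36, SE 0.88, and from venules 0.02, SE 0.88).

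Ehd2, the ATPase of the caveolar neck, stood at 152, 641, 262 and 327 CPM in arterioles and at 142, 129, 103 and 159.7 CPM in glomeruli. The first arteriole library overlapped the glomerular range. Venules were lower, at 16.8, 54.2, 31.7 and 67.2 CPM, and whole kidney had the lowest group mean at 8.92 ± 1.91 CPM. In peritubular capillaries Ehd2 stood at 7.08, 53.4, 1.87 and 1.56 CPM, and library 96 stood apart from the other 3. Ehd4, an endosomal EHD protein, stood at 512, 1153, 1080.0 and 940.1 CPM in arterioles, 254, 259, 311 and 441 CPM in glomeruli and 234, 289, 267 and 325 CPM in venules. Capillaries held 94.9, 111, 98.6 and 109 CPM and whole kidney 59.5, 64.7, 76.7 and 78.6 CPM. Arterioles, the pair of glomeruli and venules, capillaries and whole kidney formed 4 levels with no overlap between them.

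Ehd1, the EHD protein of the endocytic recycling compartment, varied least between groups. Whole kidney held 90.7, 83.4, 85.5 and 89.8 CPM, and arterioles held 374, 208, 134 and 207 CPM. All arteriole values were above whole kidney, and glomeruli (159, 43.9, 65.1 and 35.5 CPM) and venules (169.7, 115, 28.2 and 80.6 CPM) fell on both sides of it. Capillaries held 45.2, 36.1, 195 and 412 CPM, with libraries 98 and 100 high as for Cav2. No comparison passed the test for Ehd1.

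Against whole kidney, a gene was called at an adjusted p under 0.05 (edgeR quasi-likelihood test, Benjamini-Hochberg over 13813 genes) with the added condition that its log2 fold change was over 1 or under -1. In arterioles 4 of the 8 genes were higher and 0 lower, where 5.78% of all genes tested were called higher and 5.5% lower. The log2 fold change was 4.31 for Cavin1 (SE 0.60, adjusted p 2.63e-06), 5.06 for Cavin3 (SE 0.82, adjusted p 4.25e-05), 5.27 for Ehd2 (SE 0.93, adjusted p 0.00014) and 3.72 for Ehd4 (SE 0.44, adjusted p 1.24e-07). These 4 calls were kept on leaving out any 1 of the 8 libraries. Whole kidney libraries 93, 98 and 100 held adipocyte transcripts, and adipocytes are rich in caveolae. With library 96 as the only whole kidney library, the log2 fold changes of Cavin1, Cavin3, Ehd2 and Ehd4 were 4.62, 5.10, 5.14 and 3.77. With 1 library that group has no spread, so calls from this fit are not given. The part of adipocytes in the result was not tested. Cav1 missed the threshold at a log2 fold change of 3.24 (SE 1.11, adjusted p 0.0509), and was called without arteriole library 100 (3.52, adjusted p 0.0359). It was also called with RLE size factors, a filter on CPM, DESeq2, the version 4 form of edgeR or only the 8 libraries compared. Each of these fits called more of all genes than the main fit. Cav2, Cavin2 and Ehd1 had adjusted p between 0.154 and 0.199. The median over the 8 genes was 3.48, beside 0.22 over all genes tested.

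In glomeruli the genes called higher were again Cavin1, Cavin3, Ehd2 and Ehd4, 4 of 8, beside 1.59% of all genes called higher, and 0 of 8 were lower beside 1.47%. The glomerular and arteriole comparisons share the whole kidney libraries. The glomerular libraries also held podocyte genes (7100 to 8473 CPM against 202 to 229 CPM in whole kidney, 7 of 7 called higher) and mesangial genes (797 to 1289 CPM against 77.1 to 87.8 CPM, 5 of 5 called higher), and their part in the result was not tested. Their glomerular log2 fold changes were 2.35 (SE 0.55) for Cavin1, 2.74 (SE 0.74) for Cavin3, 3.90 (SE 0.87) for Ehd2 and 2.18 (SE 0.41) for Ehd4, with adjusted p of 0.00911, 0.0298, 0.0059 and 0.000915. Cavin2 was not called in glomeruli (1.91, adjusted p 0.246). Only Ehd2 and Ehd4 kept the call on leaving out each of the 8 libraries in turn. The Cavin3 call was lost without any 1 of them (adjusted p between 0.0655 and 0.108), and the Cavin1 call without glomerular library 100 (adjusted p 0.0777) or whole kidney library 96 (0.0511). Over all alternatives, including library 96 as the only whole kidney library, the glomerular log2 fold changes stayed within narrow ranges for Cavin3, Ehd2 and Ehd4. They were 2.62 to 2.77 for Cavin3, 3.76 to 3.99 for Ehd2 and 1.97 to 2.23 for Ehd4, and 1.90 to 2.63 for Cavin1. That of Ehd4 in venules was 1.91 to 2.08. A fit with 1 whole kidney library has no spread within that group, so its calls are not given. In post-capillary venules Ehd4 alone was higher, with a log2 fold change of 2.00 (SE 0.41, adjusted p 0.0121), beside 0.203% of all genes called higher, and 0 were lower beside 0.0217%. The next largest differences in venules were those of Cavin3 (2.63, adjusted p 0.200) and Ehd2 (2.25, adjusted p 0.301). The Ehd4 call was lost without any 1 of the 4 whole kidney libraries (adjusted p between 0.0754 and 0.128). In peritubular capillaries 0 of 8 were called higher and 0 lower, beside 0.0869% and 0.00724% of all genes, and 0 of the 8 had an unadjusted p under 0.05, beside 12.4% of all genes. DESeq2 also called none of them there, beside 2.06% of all genes. Microdissected libraries came from the cortex, from a fixed volume of RNA, and went through 24 PCR cycles. Whole kidney libraries came from whole kidney sections, from a fixed amount of RNA, and went through 18. Compartment, tissue region and preparation therefore cannot be told apart in these 4 comparisons.

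**Figure D2:**
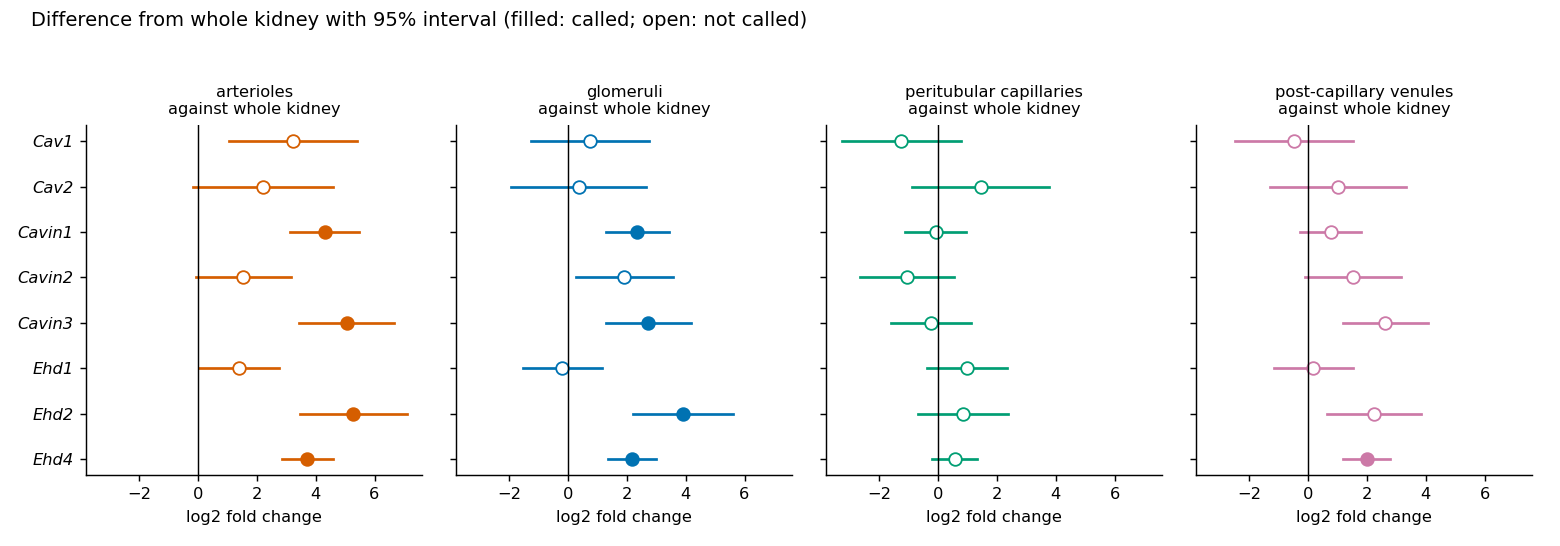
Log2 fold change of each gene in 4 compartments against whole kidney, with 95% intervals; filled points were called and open points were not. Cavin1, Cavin3, Ehd2 and Ehd4 are filled in arterioles and glomeruli, Ehd4 in venules, and no point is filled in capillaries.

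Within the 16 microdissected libraries, 12179 genes were tested. Capillaries were cut from another slide with another stain than the other 3 compartments, so in each comparison with capillaries the compartment and the staining cannot be told apart. A marker mRNA of a compartment had an adjusted p under 0.05 with higher expression than the average of the other 3 compartments, each weighted equally, and at least 10 CPM in all 4 libraries. By that rule 5 of the 8 genes were arteriole markers, beside 4.76% of all genes. They were Cav1 (log2 fold change 3.56, SE 0.84, adjusted p 0.00374), Cavin1 (3.30, SE 0.41, 2.56e-07), Cavin3 (3.35, SE 0.54, 2.80e-05), Ehd2 (2.94, SE 0.62, 0.00103) and Ehd4 (2.14, SE 0.33, 1.35e-05). All 5 stayed arteriole markers under each of the 23 alternatives tried, which included leaving out any of the 16 libraries. None of the 8 was a marker of glomeruli, peritubular capillaries or post-capillary venules, where 1.48%, 3.24% and 0.23% of all genes were. The summed smooth muscle genes had 18557 to 45640 CPM in the arteriole libraries and 187 to 1613 CPM in the others. The summed endothelial genes had 3679 to 5635 CPM against 437 to 3779 CPM. The summed fibroblast genes had 1559 to 4120 CPM in arterioles, overlapping the 872 to 2385 CPM in venules and above all others. The erythrocyte genes had 10528 to 76555 CPM in arterioles, overlapping venules and glomeruli. Each of these sums had its highest mean in arterioles. In mean level, venules were above glomeruli for the fibroblast genes (1570 against 259 CPM) and below glomeruli for each of the 5 markers. The part of these cell type genes in the result was not tested.

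Peritubular capillaries were the low end for most of these genes. Against the mean of the other 3 compartments, 5 of 8 were lower at an adjusted p under 0.05, beside 2.91% of all genes. The log2 fold change was -2.57 for Cavin1 (SE 0.54, adjusted p 0.00155), -2.72 for Cavin2 (SE 0.86, 0.0442), -3.72 for Cavin3 (SE 0.76, 0.00118), -2.97 for Ehd2 (SE 0.83, 0.0202) and -2.07 for Ehd4 (SE 0.41, 0.000839). Cavin1, Cavin3 and Ehd4 were lower under all 23 alternatives, Ehd2 under 20 and Cavin2 under 11. Cav1 had a log2 fold change of -2.42 (SE 1.09, adjusted p 0.178), and those of Cav2 (0.26, SE 1.06) and Ehd1 (0.52, SE 0.61) were above 0. The capillary libraries also held the most proximal tubule RNA, between 60488 and 113076 CPM against at most 26366 CPM in any other microdissected library, and the part of this in the low values was not tested.

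Between arterioles and peritubular capillaries, 5 of 8 genes were called higher in arterioles at an adjusted p under 0.05, beside 6.22% of all genes, with log2 fold changes of 4.49 for Cav1 (SE 1.31), 4.40 for Cavin1 (SE 0.64), 5.30 for Cavin3 (SE 0.88), 4.43 for Ehd2 (SE 0.96) and 3.16 for Ehd4 (SE 0.48). The Cav1 call (adjusted p 0.022) was lost without arteriole library 93, capillary library 98 or capillary library 100, with adjusted p between 0.0555 and 0.0644. Cavin2 missed the threshold (2.61, adjusted p 0.0612). Against venules, Cavin1 (log2 fold change 3.54, SE 0.62, adjusted p 0.000278), Ehd2 (3.02, SE 0.90, 0.0438) and Ehd4 (1.72, SE 0.45, 0.0216) were higher in arterioles, 3 of 8 beside 2.5% of all genes. The Ehd2 call was lost without arteriole library 96 or 98 or any 1 venule library (adjusted p between 0.0507 and 0.129), and the Ehd4 call without any 1 venule library (adjusted p between 0.0563 and 0.0877). The Cavin1 call was kept without each of the 8 libraries. Cav1 (3.70, adjusted p 0.0824) and Cavin3 (2.43, adjusted p 0.0620) missed the threshold.

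Glomeruli exceeded capillaries for Cavin1, Cavin3, Ehd2 and Ehd4, 4 of 8 beside 2.2% of all genes, with log2 fold changes between 1.61 and 3.06 and adjusted p between 0.00835 and 0.0408. Cavin2 missed the threshold there (2.97, adjusted p 0.0624) and passed with the library number as a replicate block (3.47, adjusted p 0.0397). It also passed with DESeq2, the version 4 form of edgeR, all 20 libraries in the fit or only the 8 libraries compared. Each of these fits called more of all genes there than the main fit. The Ehd2 call was lost without any 1 glomerular library or capillary library 93, 98 or 100 (adjusted p between 0.0520 and 0.120). The Ehd4 call was lost without glomerular library 93, 98 or 100 or capillary library 93, 96 or 98 (adjusted p between 0.0512 and 0.132). The Cavin3 call was lost without capillary library 93 or 96 (adjusted p 0.0736 and 0.0609) and the Cavin1 call without glomerular library 100 (adjusted p 0.0672). Between arterioles and glomeruli, 0 of 8 passed, beside 2.19% of all genes in either direction, while 5 of the 8 did not overlap between these groups, beside 12.3% of all genes, and 5 had an unadjusted p under 0.05, beside 19% of all genes. Cavin1 (log2 fold change 1.96, SE 0.58, adjusted p 0.0632) and Ehd4 (1.54, SE 0.45, 0.0613) were nearest to the threshold, followed by Cavin3 (2.32, adjusted p 0.103), Cav1 (2.50, adjusted p 0.247) and Ehd1 (1.60, adjusted p 0.258). DESeq2 called 4 of the 8, beside 14.1% of all genes. With the replicate block Cavin1 was called (2.19, adjusted p 0.0296). Between glomeruli and venules 0 passed, beside 1.22% of all genes. Cavin1 alone had an unadjusted p under 0.05 (log2 fold change 1.58, adjusted p 0.198), a share near the 11.5% of all genes, and DESeq2 called 0, beside 5.17%. Between capillaries and venules 0 passed, beside 0.411%. Cavin2 (-2.59, adjusted p 0.269), Cavin3 (-2.87, adjusted p 0.104) and Ehd4 (-1.44, adjusted p 0.208) had an unadjusted p under 0.05, beside 11.2% of all genes, and DESeq2 called 3 of the 8, beside 4.85%. With the replicate block Cavin3 was called (-3.59, adjusted p 0.0394).

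**Figure D3:**
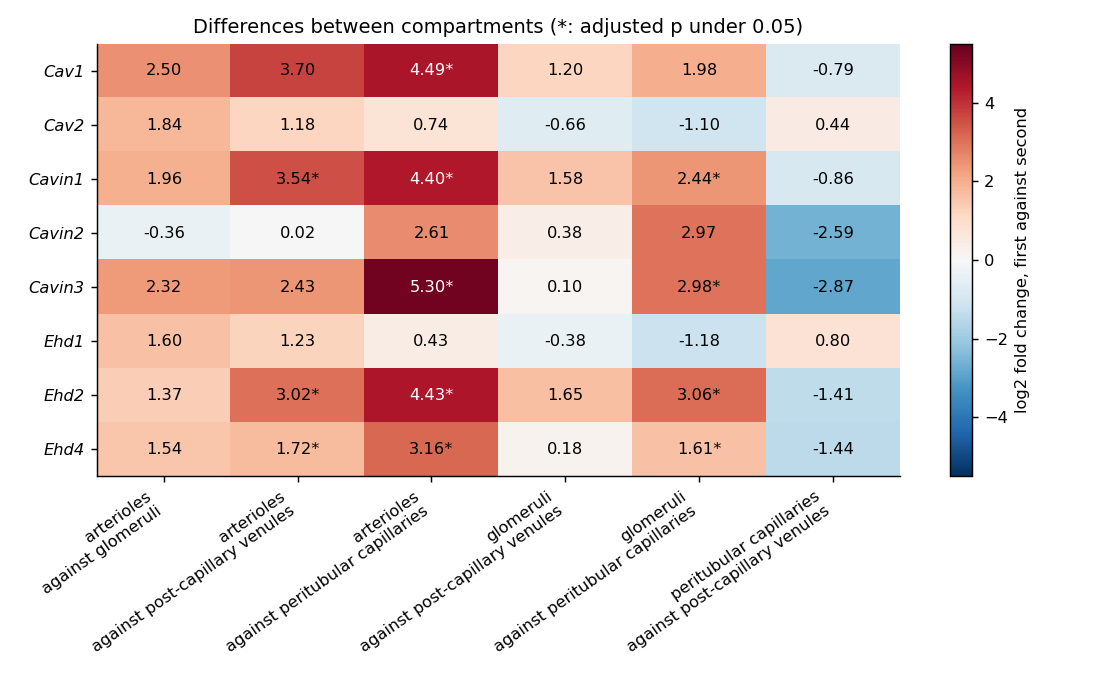
Log2 fold change of each gene (rows) in the 6 pairs of compartments (columns), red where the first compartment is higher; an asterisk marks an adjusted p under 0.05. The asterisks fall on Cav1, Cavin1, Cavin3, Ehd2 and Ehd4, and the 5 on arterioles against capillaries have values from 3.16 to 5.30.

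A ratio of 2 genes within a library takes out the library total, except where a level is no larger than the 0.5 CPM added to it. The log2 ratio of Cav2 to Cav1, each as CPM + 0.5, was -1.21 ± 0.50 in arterioles (-1.81 to -0.62), -0.74 ± 0.51 in glomeruli (-1.27 to -0.21) and 1.70 ± 1.49 in venules (0.32 to 3.38). Venules thus lay above both others with no overlap. The difference from venules was -2.91 in arterioles (SE 0.78) and -2.45 in glomeruli (SE 0.78), each with an exact two-sided permutation p of 0.0286, the smallest that 4 against 4 can give. In capillaries the ratio split, with -4.33 and -1.996 in libraries 93 and 96 and 4.95 and 6.42 in libraries 98 and 100. The outermost of these rest on 3 counts of Cav2 in library 93 and 3 counts of Cav1 in library 100, levels of the same size as the added 0.5 CPM. The log2 ratio of Ehd4 to Ehd2 was 1.54 ± 0.51 in arterioles, 1.22 ± 0.36 in glomeruli and 2.87 ± 0.68 in venules. Venules were again above both with no overlap, with differences from venules of -1.33 in arterioles (SE 0.43) and -1.65 in glomeruli (SE 0.39) and the same exact permutation p of 0.0286. Of the 30 tests over 5 ratios and 6 pairs of compartments, these 4 had an exact permutation p under 0.05, and none passed after Benjamini-Hochberg adjustment (smallest 0.214).

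The remaining ratios did not separate the compartments. The log2 ratio of Cavin1 to Cav1 had means between 2.88 and 3.34 in the 4 compartments, with SDs between 0.83 and 3.22. That of Ehd2 to Cav1 ran from 0.63 ± 1.49 in capillaries to 2.19 ± 0.27 in glomeruli. The log2 ratio of Cav1 to Pecam1, an adhesion molecule of endothelial junctions, was -3.27 ± 0.39 in arterioles, -3.57 ± 0.29 in glomeruli, -3.74 ± 2.25 in capillaries and -3.87 ± 1.76 in venules. In glomeruli and arterioles this ratio spanned less than 1.0 in log2 over 4 libraries, and in capillaries it spanned from -6.53 to -1.83.

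**Figure D4:**
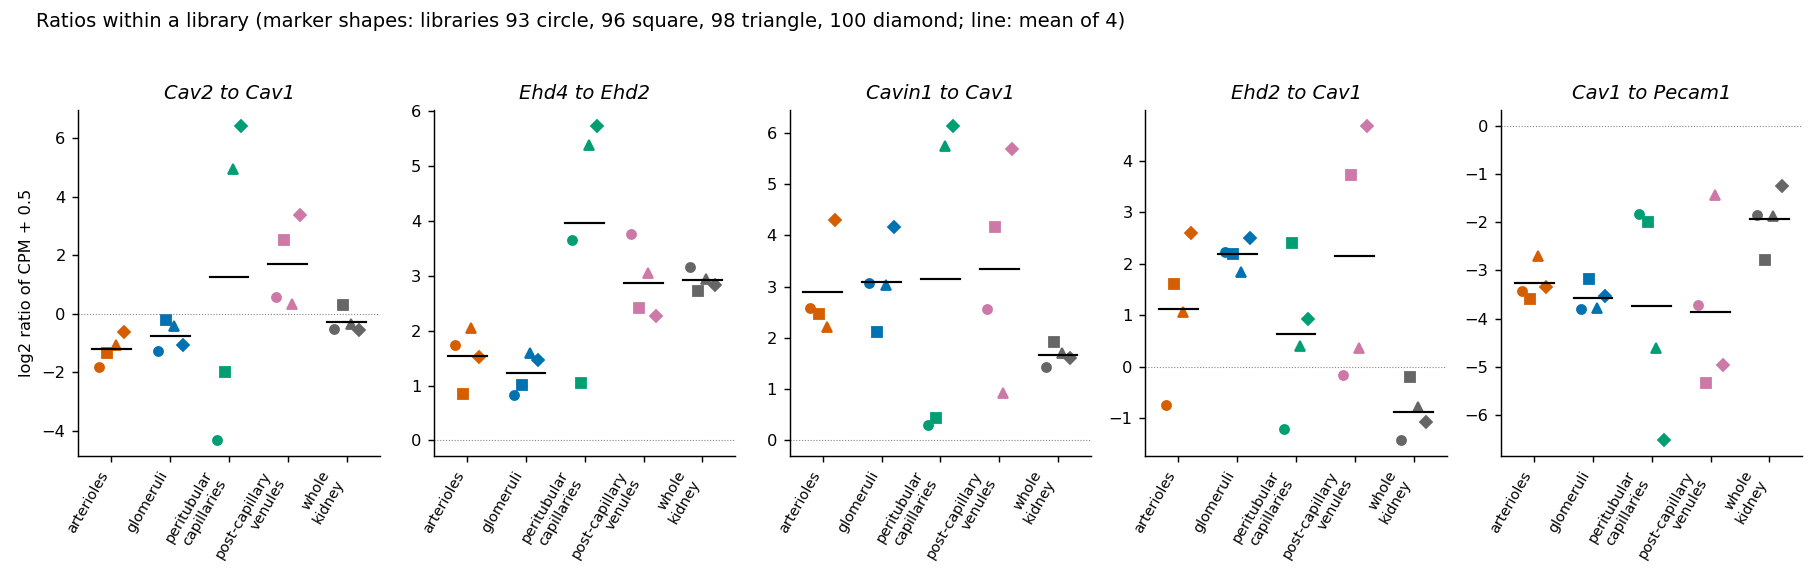
Log2 ratios of CPM + 0.5 within each library for 5 pairs of genes, by group, with a line at the mean of 4. For Cav2 to Cav1 the 4 venule libraries (0.32 to 3.38) lie above all arteriole and glomerular libraries, and the capillary libraries form a low and a high pair.

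Genes that work with caveolae were read from a list of 10. In arterioles against whole kidney 7 were tested, 2 were higher and 1 was lower, where 5.78% and 5.5% of all genes were. Nos3, the endothelial nitric oxide synthase that CAV1 binds, stood at 464 ± 43.8 CPM in arterioles against 6.06 ± 1.54 in whole kidney (log2 fold change 6.26, adjusted p 6.15e-05). Bmx, a kinase of arterial endothelium, stood at 77.2 ± 80.5 CPM against 1.03 ± 0.39 (6.21, adjusted p 0.0237). Cd36, a fatty acid receptor of capillary endothelium and tubules, was lower, with means of 3.64 ± 1.28 CPM (arterioles) and 15.04 ± 6.79 CPM (glomeruli), where whole kidney held 163 ± 26.9 CPM and capillaries 304 ± 60.2 CPM. Plvap, the protein of the diaphragms of caveolae and fenestrae, had its highest mean in venules at 259 ± 57.9 CPM, above all whole kidney libraries (89.6 ± 7.23 CPM), with an adjusted p of 0.514. The muscle isoform Cav3 was not tested, with 10 counts or fewer over 4 libraries in each group other than arterioles, where 1 library held 48.9 CPM. Cavin4, the muscle cavin, had 0 counts in all 16 microdissected libraries and 1 count in whole kidney.

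Among 10 partners of EHD proteins in recycling, all tested, 1 was higher in arterioles, beside 5.78% of all genes, and 1 in glomeruli, beside 1.59%. Ehbp1l1, which binds EHD proteins on recycling tubules, stood at 216 ± 82.9 CPM in arterioles against 8.15 ± 2.00 in whole kidney (log2 fold change 4.73, adjusted p 0.0123). The remaining family member Ehd3 followed another compartment, at 2220.3 ± 371 CPM in glomeruli against 171 ± 216 in arterioles, 111 ± 66.6 in capillaries, 146 ± 39.7 in venules and 53.7 ± 7.26 in whole kidney (glomeruli against whole kidney 5.37, adjusted p 1.69e-05). It was thus higher in glomeruli than in each other compartment (adjusted p between 0.000217 and 0.00223), where none of Ehd1, Ehd2 and Ehd4 was a marker. The flotillins Flot1 and Flot2, scaffold proteins of other membrane domains, were not called against whole kidney in any compartment. Of 10 clathrin coat genes, Picalm alone was called, 1 of 10 beside 5.78% of all genes, higher in arterioles by 1.43 (adjusted p 0.0239), at 624 ± 342 CPM against 219.7 to 244 CPM in the whole kidney libraries. The list medians in arterioles against whole kidney were 1.87 for caveola partners, 1.56 for EHD partners, 2.47 for flotillins and 0.89 for clathrin coat genes, beside 0.22 for all genes.

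The 8 genes resembled each other over the 16 microdissected libraries mainly through the compartment. Pearson r of log2(CPM + 1) over the 28 pairs had a median of 0.50 and ran from -0.14 (Cavin2 and Ehd1) to 0.86 (Ehd2 and Ehd4). After subtracting the compartment means the median was 0.01 and the range -0.63 to 0.69. The pairs with the highest r there were Cavin1 with Ehd1 (0.69), Cav2 with Ehd1 (0.65) and Cav2 with Cavin1 (0.62), and the lowest was Cav2 with Ehd2 (-0.63). With the summed smooth muscle genes, r was 0.90 for Ehd4, 0.89 for Cavin1, 0.78 for Cavin3 and 0.23 for Cavin2. With the summed endothelial genes it was 0.87 for Cavin1, 0.80 for Ehd4, 0.39 for Cavin2 and 0.30 for Ehd1. After subtracting the compartment means, r with the endothelial genes was 0.35 for Cavin1, 0.08 for Ehd4, -0.43 for Cavin2 and -0.54 for Cavin3. It was 0.52 for Ehd1, 0.56 for Cav2, -0.26 for Cav1 and -0.42 for Ehd2. With the smooth muscle genes r was then -0.02 for Ehd4, 0.57 for Cavin1, 0.03 for Cavin3 and -0.55 for Cavin2. It was 0.69 for both Cav2 and Ehd1, -0.29 for Cav1 and -0.27 for Ehd2. These are descriptions of libraries that share a compartment.

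**Figure D5:**
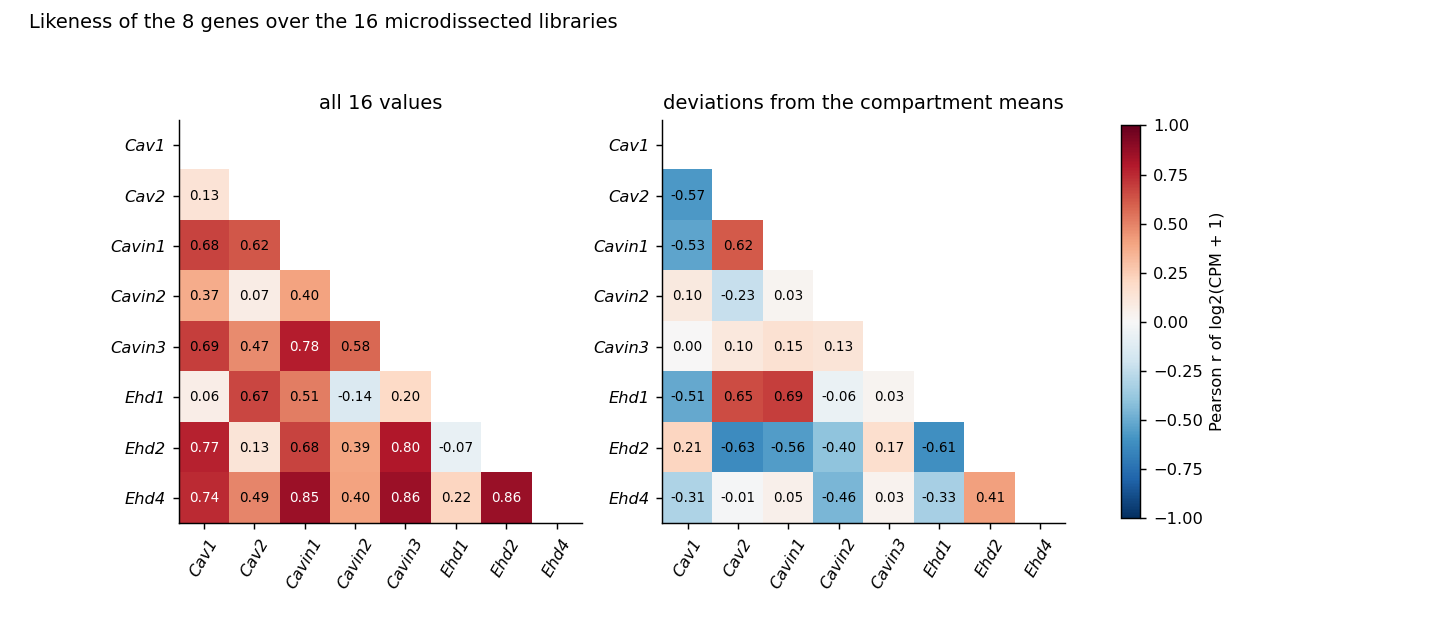
Pearson r of log2(CPM + 1) between the 8 genes over the 16 microdissected libraries, from all values (left) and from deviations from the compartment means (right). The left map is mostly red, up to 0.86 for Ehd2 and Ehd4, and the right map holds both signs, from -0.63 to 0.69.

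Of 9500 genes with a mean of at least 10 CPM, those most like each member over the same 16 libraries were ranked by the same r. The members themselves, genes with no proper name and pseudogenes were passed over. For Cavin1 they were the cytoskeletal genes Actb (0.94) and Vim (0.93) and the myosin kinase gene Mylk (0.92), and for Cavin3 they were Ifitm3 (0.97), Gsn (0.95) and S100a6 (0.94). For Ehd2 they were Gata3 (0.96), Rbfox2 (0.94) and Arf6 (0.94), and for Ehd4 they were Heg1, Fam3c and Pkdcc (each 0.94). For Cav1 they were Pcp4l1 (0.93), Dtna (0.93) and Parm1 (0.91). For Cavin2 they were Calcrl (0.89), the receptor of adrenomedullin and CGRP in endothelium, Arhgef40 (0.87) and Cd52 (0.85). The best r was lower for Cav2 (C1s1, 0.90) and Ehd1 (Itih5, 0.84) than for Cavin3.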

How the data were processed

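RNA of 20 kidney samples was sequenced with a 3′ mRNA kit (Lexogen QuantSeq FWD), with a low-input protocol for the microdissected samples. The authors used bbduk for trimming, STAR 2.7 for alignment to GRCm38.p6 and HTSeq 0.13 for counting reads per gene. The submitters' notes also name featureCounts and GRCm39, with no role given. The authors deposited raw read counts, with no normalization, and 148 of the 168 columns of values in the table were not used here. For strand and molecular identifiers, the counting settings were not given in the sources used here. Columns were assigned to groups by their names and header lines. The numbers 93, 96, 98 and 100 were not tied to labelled replicates, and the name of the capillary 96 column carries letters of unknown meaning. No pair of libraries held identical values.

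Counts were fitted in R 4.3.3 with edgeR 4.0.16 (TMM, filterByExpr by group, the version 3 form of the quasi-likelihood F test), over all 20 libraries against whole kidney and over the 16 microdissected libraries otherwise. Adjusted p-values were obtained by the Benjamini-Hochberg method across every gene tested, each SE was taken from the F statistic, and 95% intervals assume normality. Ratios were compared by exact two-sided permutation tests on log2 ratios of CPM + 0.5. DESeq2 1.42.0, RLE size factors, other filters, other sample sets, left-out libraries and a replicate block were alternatives. The fits were tested on simulated data. The members and lists were chosen with earlier results of these data known. All 8 members were tested in every comparison, and the text names those called or with an unadjusted p under 0.05 and summarises the rest. Of the partner lists it names those called against whole kidney, plus Plvap, Cav3, Cavin4, Flot1 and Flot2, which were chosen after their values were seen.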

Additional observations from a re-analysis of the deposited data

Results flagged for a closer look

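The level of Ehd2 in peritubular capillary library 96 was 53.4 CPM, while the other 3 capillary libraries held between 1.56 and 7.08 CPM. Its gap to the nearest other library was 0.893 of the range of the group, above Dixon's 95% critical value for 4 samples. It was the only such value among 40 groups of 4 examined (8 genes in 5 groups), where chance alone gives about 1 in 20. Without that library the log2 difference of Ehd2 between capillaries and whole kidney was -1.34 in place of 0.84, with no call in either case.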

How the results depend on the processing

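The 8 genes in 14 comparisons gave 112 results, recomputed in 2016 combinations with an alternative. The call was unchanged in 1900 of them, lost in 57 and gained in 59, and no called difference turned its direction; the sign changed in 35 combinations with no call in either fit, and in 39 of 270 recomputed ratios, none of which had passed after adjustment. All 5 arteriole marker calls were kept under every alternative run. Members called in arterioles against glomeruli numbered 2 with RLE size factors or with no filter on low counts, 3 with all 20 libraries or only the 8 libraries compared, 4 with DESeq2 or the version 4 form of edgeR and 1 with the replicate block, in place of 0. Over all genes, in either direction, the main fit called 267 of 12179 there. RLE size factors called 328 of 12179 and no filter 385 of 21058. All 20 libraries gave 814 of 13813 and only the 8 libraries 344 of 9783. DESeq2 called 1721, the version 4 form 846 and the replicate block 242, each of 12179. In arterioles against venules the members called numbered 5 with DESeq2, the version 4 form or all 20 libraries, in place of 3. Over all genes these fits called 2208 of 12179, 1192 of 12179 and 1430 of 13813, in place of 533 of 12179. In capillaries against venules the members called numbered 1 with no filter, 3 with DESeq2 and 1 with the replicate block, in place of 0. Over all genes these fits called 108 of 21058, 591 of 12179 and 57 of 12179, in place of 50 of 12179. In venules against whole kidney the members called numbered 2 with no filter, with the version 4 form or with only 8 libraries, in place of 1. Over all genes these fits called 48 of 25547, 50 of 13813 and 1082 of 12919, in place of 31 of 13813. Leaving out 1 library at a time gave 2 to 3 members in glomeruli against whole kidney, 0 to 1 in venules against whole kidney, 0 to 1 in arterioles against glomeruli, 1 to 4 in arterioles against venules, 1 to 3 in glomeruli against capillaries, 0 to 1 in capillaries against venules, and 3 to 5 lower in capillaries than in the other compartments. Over all genes it gave 167 of 12748 to 301 of 13014 in arterioles against glomeruli. In glomeruli against capillaries it gave 367 of 12748 to 437 of 12925 over all genes. For the other comparisons these shares are not given here.

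Of the whole kidney libraries, 93, 98 and 100 held adipocyte transcripts (6 genes summing to 41.8, 198 and 311 CPM against 1.27 CPM in library 96). The fit with library 96 as the only whole kidney library, assumed to vary like the other groups, was a choice made after seeing the data, as was the version 4 form. Its calls enter the totals of lost and gained calls above and are not listed singly, since 1 library gives no spread. RLE size factors raised the members' log2 differences in the arteriole comparisons by medians between 0.23 and 0.33. Over all genes DESeq2 called 3539 in arterioles against whole kidney, where edgeR called 1558. Deviations from the group means of libraries that share a number correlated weakly (r between -0.05 and 0.07 in 40 pairs, 31 of them above 0), while 12 of 20 libraries were nearest to one of their own number, where unrelated numbers would give about 5. Whether the numbers pair the libraries is therefore unsettled, and the replicate block moved no other count of members by over 1.5 times. The cause of these changes was not tested. For Cav1, Cav2 and Cavin3 the lowest capillary library held 3 counts. This was library 93 for Cav2 (8094110 counts in total) and library 100 for Cav1 and Cavin3 (7903657 in total). The part of depth in these low values was not tested.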
